A study of Mus musculus with 10 samples.

Results

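The genes described here mark the B lymphocyte lineage: the signalling chains of the B cell receptor, the kinases, adaptors and co-receptors around it, the transcription factors of B cells, their chemokine and TNF-family receptors, and genes of the B-1 and B-2 subsets. They were chosen by name, as the rows of the deposited count table whose Ensembl identifier maps to 39 given symbols. The choice was made with earlier results of these data known. Shares of these genes set beside those of all genes are therefore descriptions, not an independent test. Because Faim3 is an older name of Fcmr, these are 38 genes of the 22165 in the table. The libraries were made from polyadenylated RNA of peritoneal cavity macrophages of C57BL/6 mice, sorted after staining for CD64, ICAM-2 and CD115. All mice carried floxed alleles of 1 gene per the treatment protocol, although the growth protocol names the controls only as WT. Mice called knockout also carried LysM-Cre, a recombinase expressed from the Lyz2 locus in myeloid cells, so that the genotypes differ both in the floxed gene and in the presence of Cre. The age of the mice is not given in the sources used here. Each genotype received intraperitoneal saline or IL-4 bound to an antibody against IL-4, and the peritoneum was washed with 5 ml of PBS at 36 hours. There were 2 wild-type and 2 knockout saline libraries, and 3 wild-type and 3 knockout IL-4 libraries. The labels do not say that replicates were separate animals, so p-values measure only the spread between these libraries, which may be technical.

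The B cell receptor is a membrane immunoglobulin held by the CD79A and CD79B chains, whose phosphorylated tails recruit kinases and the adaptor BLNK. EBF1 and PAX5 set up and hold the B cell programme, and CD22 and Siglec-G restrain receptor signalling. The peritoneal cavity holds resident macrophages beside many B-1 cells, which are self-renewing B cells rich in CD5 and BHLHE41, and fewer B-2 cells, which carry CD23 (Fcer2a) and CD21 (Cr2). In RNA from a sorted population, fewer cells of a type and less RNA per cell cannot be told apart.

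The promoter windows are shown of 4 members that rose in knockout saline libraries and fell with IL-4 in knockout, by different amounts. Those of Cd22, Ccr6 and Blnk hold letters known as binding motifs of B cell transcription factors. That of Cd79a lacks the exact letters of the motifs marked here, though it holds the E-box given below. Each window covers the 250 bases before a gene's start in the RefSeq table of build GRCm38.p6, read 5′ to 3′ on the gene's strand. The GENCODE gene spans used elsewhere here differ. The GENCODE start of Cd79a (24897381) lies inside the Cd79a window. The Cd22 and Blnk windows lie inside the GENCODE spans of those genes, which start at 30880342 and 40994535. Capitals mark a match, on either strand, to the EBF1 palindrome (TCCC, any 2 bases, then GGGA) or to ATGCAAAT (the octamer bound by POU2F2 with its co-activator POU2AF1), and these motifs did not overlap. The windows lie at chr7:24897247-24897496 (plus strand, Cd79a), chr7:30879029-30879278 (minus strand, Cd22), chr17:8235793-8236042 (plus strand, Ccr6) and chr19:40994222-40994471 (minus strand, Blnk).
Cd79a: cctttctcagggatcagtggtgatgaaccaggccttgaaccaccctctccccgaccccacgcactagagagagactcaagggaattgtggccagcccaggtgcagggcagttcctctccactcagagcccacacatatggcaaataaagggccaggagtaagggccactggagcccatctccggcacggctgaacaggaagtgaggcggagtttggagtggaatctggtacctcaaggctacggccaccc
Cd22: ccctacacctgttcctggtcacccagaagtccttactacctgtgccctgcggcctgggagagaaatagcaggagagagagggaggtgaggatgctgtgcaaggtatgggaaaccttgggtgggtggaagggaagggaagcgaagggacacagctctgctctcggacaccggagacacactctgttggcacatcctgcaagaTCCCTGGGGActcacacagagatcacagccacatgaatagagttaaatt
Ccr6: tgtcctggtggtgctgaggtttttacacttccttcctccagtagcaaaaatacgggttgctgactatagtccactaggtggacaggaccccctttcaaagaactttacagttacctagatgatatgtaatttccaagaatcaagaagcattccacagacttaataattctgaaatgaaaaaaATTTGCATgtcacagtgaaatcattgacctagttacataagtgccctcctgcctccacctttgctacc
Blnk: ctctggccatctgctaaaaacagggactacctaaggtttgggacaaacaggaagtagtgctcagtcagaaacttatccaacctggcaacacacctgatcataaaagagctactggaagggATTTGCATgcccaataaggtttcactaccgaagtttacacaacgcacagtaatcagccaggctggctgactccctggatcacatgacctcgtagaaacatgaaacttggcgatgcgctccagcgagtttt
Counted from the RefSeq starts of these windows, the EBF1 palindrome began 49 bases before that of Cd22. The octamer began 68 bases before that of Ccr6 and 130 bases before that of Blnk. Of the 38 genes, 30 had an entry in the RefSeq promoter table, and the other 8 (Blk, Ccr7, Cd24a, Cd79b, Cxcr5, Hvcn1, Ms4a1 and Stap1) were not searched. The EBF1 palindrome was found for 1 of the 30 genes (Cd22) and in 0.779% of all 32851 windows of this length, and the octamer for 3 (Blnk, Ccr6 and Vpreb3) and in 1.6% of all windows. The E-box CAGGTG was found for 12 genes, Cd79a, Cd22 and Blnk among them, and in 17.2% of all windows. A STAT6-type palindrome (TTC, any 4 bases, then GAA) was found for Fcer2a and Lax1 and in 5.85% of all windows. Some of the 30 genes had more than 1 window. Of their 38 windows, 1 held the EBF1 palindrome, 3 the octamer, 12 the E-box and 2 the STAT6-type palindrome. A match is a description of the letters, not a measured binding site.

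Total counts ranged from 8762403 to 15024073 per library, and 11614 genes passed the filter on low counts. All 38 B lineage genes passed it, of which 1 (Vpreb3) passed only through the knockout saline libraries. Levels are counts per 1000000 counts of a library (CPM) after TMM scaling, and differences are log2 fold changes ± SE from edgeR's quasi-likelihood test with Benjamini-Hochberg adjustment over all 11614 genes, with adjusted p under 0.05 as the threshold. Macrophage markers were present in every library: Csf1r, which encodes CD115, lay between 248 and 368 CPM, Adgre1 (F4/80) between 559 and 885 CPM and Gata6, the factor of large peritoneal macrophages, between 506 and 906 CPM. Lyz2, the gene that carries the Cre driver, lay at 23600 and 21903 CPM in the wild-type saline libraries but at 2664 and 9675 CPM in the knockout saline libraries (log2 -1.88 ± 0.42, adjusted p = 0.0249). This genotype call was lost without wild-type saline replicate 1 (log2 -1.82) or replicate 2 (log2 -1.94), and in a fit of the 2 groups alone (adjusted p = 0.109). Lyz2 also fell with IL-4 in wild type, to 7046, 5912 and 6457 CPM (log2 -1.81 ± 0.37, adjusted p = 0.0123). In knockout IL-4 libraries it lay at 4096, 3504 and 2845 CPM, and the genotype difference after IL-4 did not pass (adjusted p = 0.249). The other sorting markers were less even: Fcgr1 (CD64) ran from 7.99 to 37.5 CPM and fell with IL-4 in wild type (adjusted p = 0.00221) and knockout (0.0128, and 0.128 without knockout saline replicate 1). Icam2 ran from 275 to 1154 CPM and fell with IL-4 in wild type (adjusted p = 0.0214), a call lost without wild-type saline replicate 2 (0.177) or wild-type IL-4 replicate 1 (0.0902) or 2 (0.0892).

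B lineage RNA was highest in the knockout saline libraries. Summed over the 38 genes, the level was 3545 and 4067 CPM in knockout saline libraries, 1574 and 1737 CPM in wild-type saline libraries, 1723, 1770 and 1830 CPM in wild-type IL-4 libraries, and 1870, 1961 and 1961 CPM in knockout IL-4 libraries. Cd24a, the member that fell, held 39.7% of the members' counts in wild-type saline libraries. Without it the sums were 3304 and 3758 CPM in knockout and 922 and 1072 CPM in wild-type saline libraries, a ratio of means of 3.54 instead of 2.30. All 38 genes took 0.374% and 0.432% of all counts in the knockout saline libraries and 0.157% to 0.190% in the 8 others. Both knockout saline libraries lay above all 8 other libraries for 30 of the 38 genes, and for 6.91% of all genes tested.

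**Figure D1:**
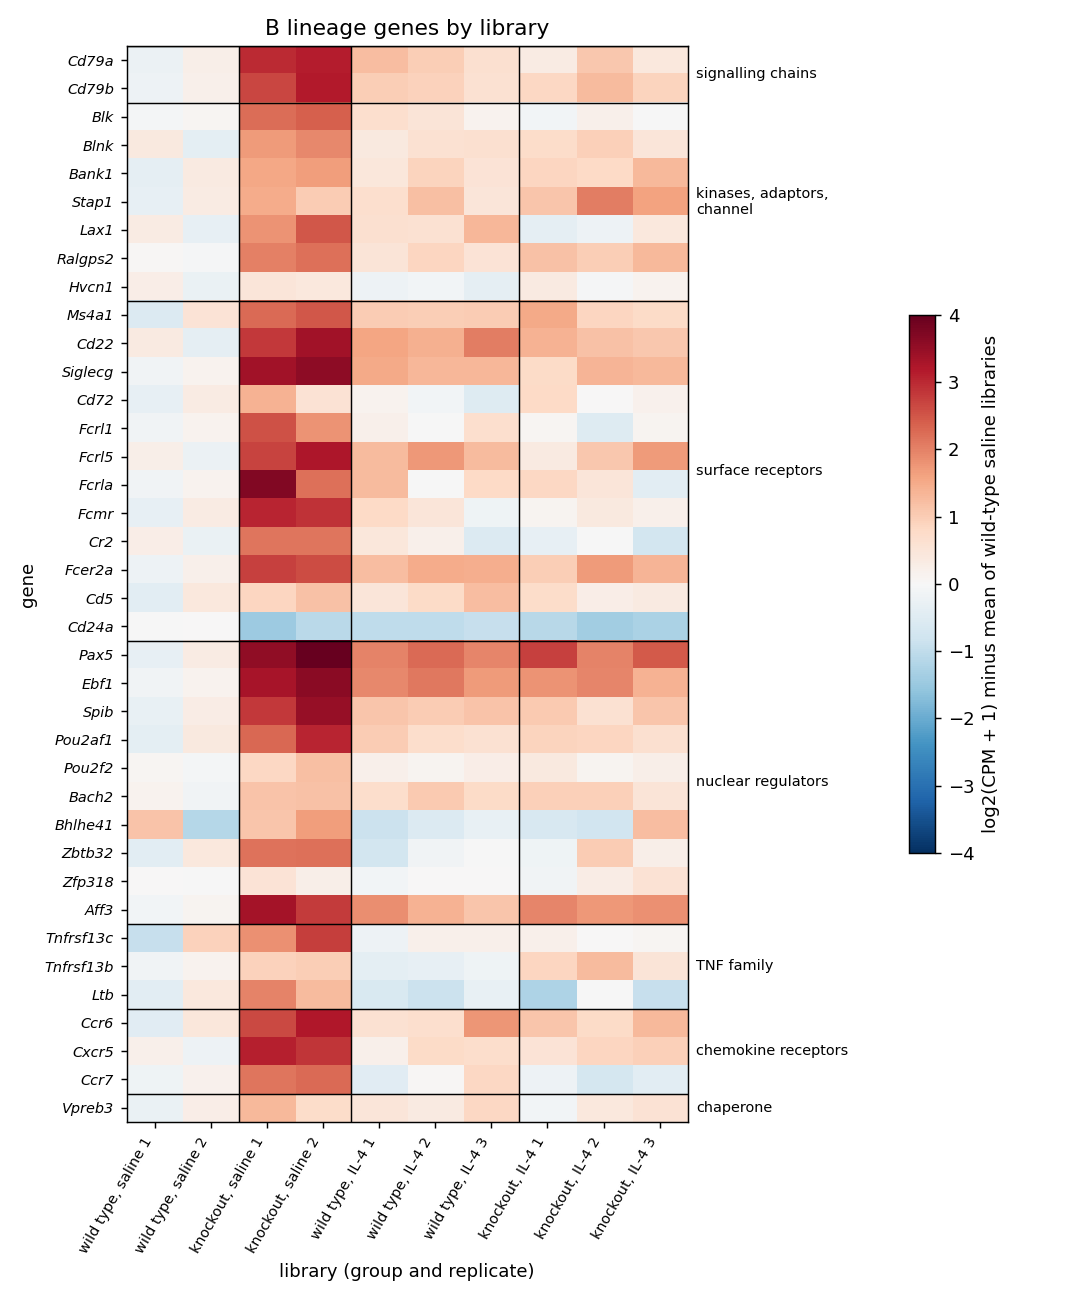
Level of each B lineage gene (rows, grouped by role) in each library (columns), as log2(CPM + 1) minus the mean of the 2 wild-type saline libraries. Red is higher and blue lower than that mean. Both knockout saline columns lie above all others for 30 of the 38 genes, and Cd24a is blue in every library outside the wild-type saline group.

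In saline, knockout libraries differed from wild type for 29 of the 38 genes. Of these, 28 rose and 1 (Cd24a) fell, and 9 did not pass, while 4.14% of all genes tested passed (2.61% rose and 1.53% fell). The median log2 difference of the 38 genes was 2.44, against -0.02 over all genes, and 37 of the 38 estimates were positive. The genes that did not pass were Tnfrsf13b, Stap1, Ltb, Cd5, Bhlhe41, Vpreb3, Cd72, Zfp318 and Hvcn1. With 2 libraries a group, 19 of the 29 calls were kept in every fit without 1 library. Without wild-type saline replicate 2, Blnk, Fcrl1, Fcrla, Cr2, Pou2f2, Bach2 and Lax1 no longer passed (adjusted p from 0.0511 to 0.175). Without wild-type saline replicate 1, Fcrl1, Fcrla, Zbtb32 and Tnfrsf13c no longer passed (0.0652 to 0.0759). Without knockout saline replicate 2, Cr2, Pou2f2, Tnfrsf13c, Bach2 and Lax1 no longer passed (0.0546 to 0.191), and without replicate 1, Fcrl1, Cr2, Bach2 and Cd24a no longer passed (0.0523 to 0.169).

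After IL-4, the genotypes differed for 1 of the 38 genes, Tnfrsf13b, which was higher in knockout, while 0.827% of all genes tested passed (0.353% rose and 0.474% fell). By edgeR's test, 6 of the 38 had an unadjusted p under 0.05, as had 1673 of all 11614 genes tested, a similar share. DESeq2 also called 1 of the 38. The median log2 difference was -0.02 for the 38 genes and 0.02 over all genes.

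With IL-4, most of these genes fell in knockout and a smaller set rose in wild type. In knockout, 27 of 38 fell and the other 11 did not pass, with a median log2 of -1.79, while 7.6% of all genes tested passed (3.51% fell and 4.09% rose). In wild type, 8 rose (Cd22, Pax5, Ebf1, Siglecg, Fcrl5, Fcer2a, Spib and Aff3) and 1 fell (Cd24a), with a median log2 of 0.73, while 6.06% of all genes passed (3.26% rose and 2.8% fell). All 8 genes that rose in wild type fell in knockout. The interaction term, taken as the log2 change with IL-4 in knockout less the wild-type one, was negative for 23 genes and did not pass for the other 15, with a median log2 of -2.88, while 2.81% of all genes passed (1.78% negative and 1.02% positive). These comparisons are not independent, because each saline group serves in 3 of the 5 and the interaction uses all libraries.

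The counts of IL-4 effects rested in part on single saline libraries. Without knockout saline replicate 2, the 27 genes that fell in knockout became 15, with Ms4a1, Pax5, Blnk, Fcrl5, Fcer2a, Zbtb32, Pou2f2, Tnfrsf13c, Ccr6, Lax1, Ralgps2 and Aff3 no longer passing (adjusted p from 0.0531 to 0.276). Without knockout saline replicate 1 they became 19, with Ms4a1, Blnk, Fcrl1, Fcer2a, Zbtb32, Ltb, Ralgps2 and Aff3 no longer passing (0.0502 to 0.265). In wild type, the 9 changed genes became 5 without wild-type saline replicate 1, which ended the calls of Fcrl5, Fcer2a, Spib and Aff3 (0.0711 to 0.259). They also became 5 without wild-type saline replicate 2, which ended those of Cd22, Fcrl5, Fcer2a, Spib and Aff3 (0.051 to 0.247) and brought in Ms4a1 (0.0184). Without wild-type IL-4 replicate 2 they became 6, as Fcrl5, Fcer2a and Spib no longer passed (0.0508 to 0.12). Fcrl5 and Spib also lost their calls there without wild-type IL-4 replicate 1 (0.0681 to 0.0966) or 3 (0.0657 to 0.103) or knockout saline replicate 2 (0.0566 to 0.0588), and Spib without knockout saline replicate 1 (0.0504). In a fit of the 2 wild-type groups alone, Fcrl5 (0.0511) and Spib (0.0746) did not pass, and in one of the 2 knockout groups alone Pou2f2 (0.074) did not. In knockout, Blnk and Fcer2a lost theirs without IL-4 replicate 1 (0.0501 to 0.0625), Pou2f2 and Aff3 without replicate 2 (0.0537 to 0.0602), and all 4 without replicate 3 (0.053 to 0.0805).

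**Figure D2:**
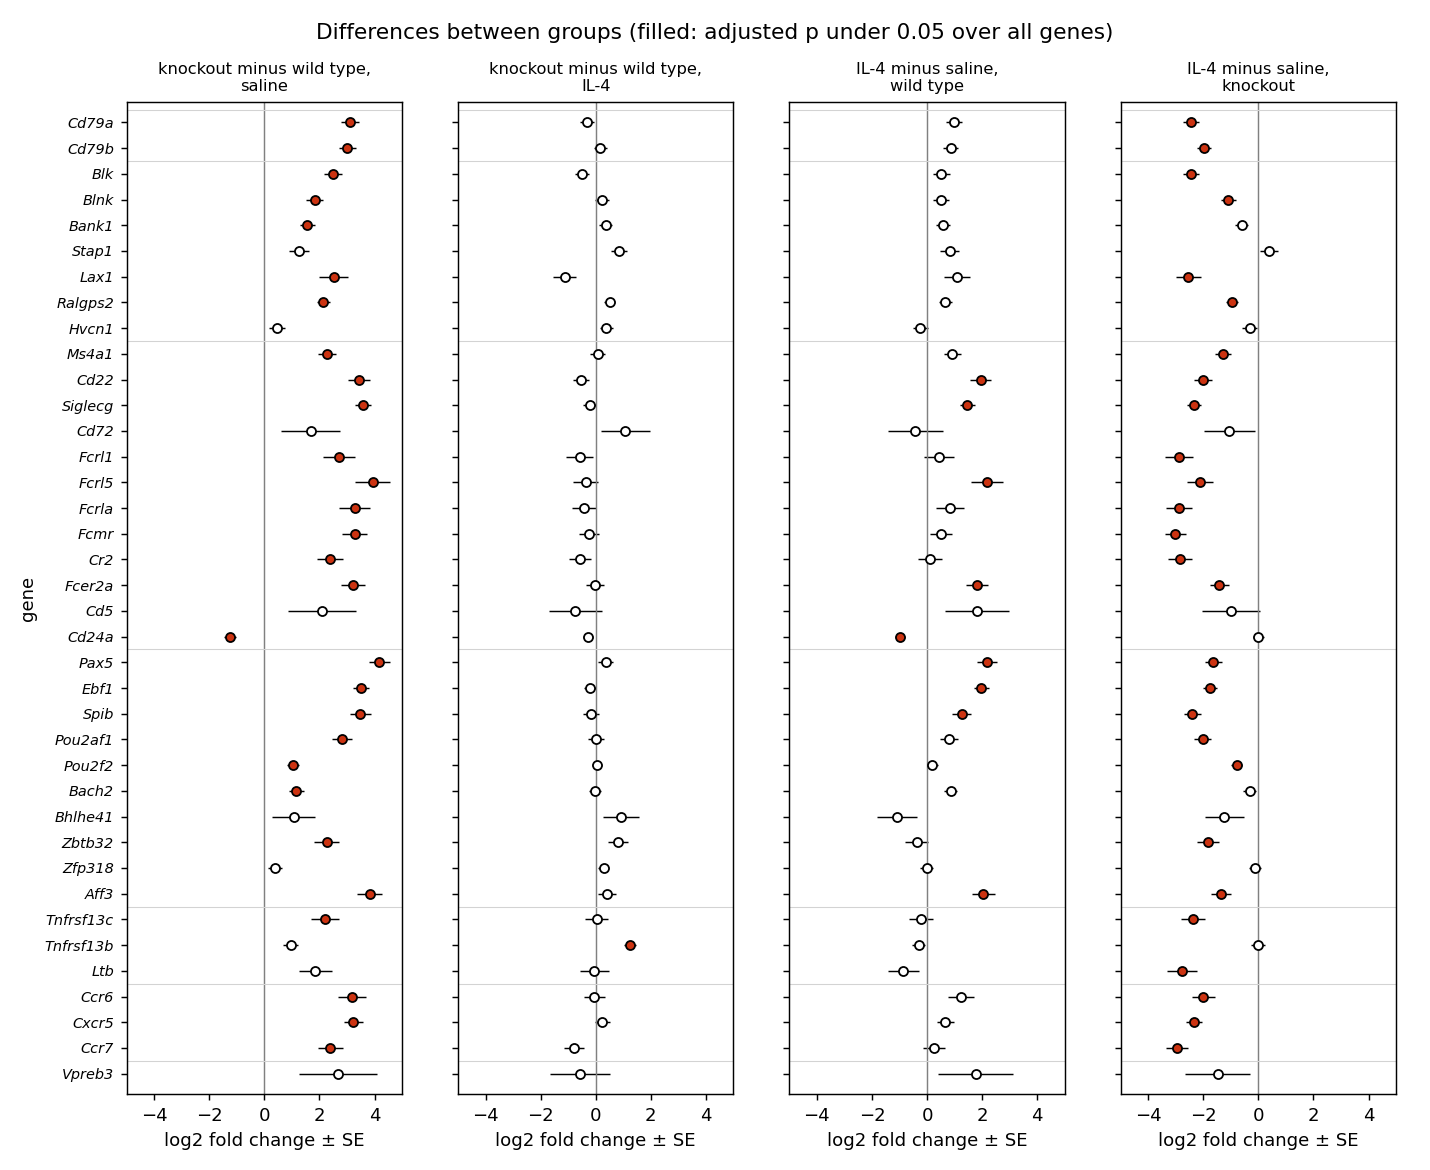
Difference of each B lineage gene in 4 comparisons, as log2 fold change (points) with its SE (bars). Filled points passed an adjusted p of 0.05 over all genes tested. In saline, 28 filled points lie to the right of 0 and 1 to the left, after IL-4 the genotypes differ for Tnfrsf13b, and IL-4 gives 27 filled points to the left of 0 in knockout.

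Cd79a and Cd79b, the signalling chains of the B cell receptor, rose together in knockout saline libraries. Cd79a (ENSMUSG00000003379, chr7:24897381-24902197, mm10) was at 15.5 and 21.5 CPM in wild-type saline libraries, 149.8 and 169 CPM in knockout saline libraries, 44.5, 36.8 and 28.7 CPM in wild-type IL-4 libraries and 23.0, 39.9 and 24.7 CPM in knockout IL-4 libraries. Cd79b (ENSMUSG00000040592, chr11:106311341-106314762) was at 13.4 and 17.8, 103 and 147, 31.6, 30.1 and 23.9, and 28.4, 38.4 and 29.5 CPM in the same groups. For both genes the knockout saline libraries lay above every other library, and the IL-4 groups overlapped each other and lay above wild-type saline. Cd79a was 8.61-fold higher in knockout than wild-type saline libraries (log2 3.11 ± 0.34, adjusted p = 9.4e-05) and Cd79b 8.01-fold (log2 3.003 ± 0.31, adjusted p = 5.7e-05). With IL-4, Cd79a fell in knockout by 2.45 ± 0.29 on the log2 scale (adjusted p = 9.58e-05) and Cd79b by 1.96 ± 0.26 (adjusted p = 0.000255). In wild type, neither passed with IL-4 (log2 0.99 ± 0.30, adjusted p = 0.0641, and log2 0.87 ± 0.27, adjusted p = 0.0725). The Cd79a value passed without knockout IL-4 replicate 1 (adjusted p = 0.0483) or replicate 2 (adjusted p = 0.035), on scaling to library totals (0.0449), without a filter (0.0203), in a fit of the 2 groups alone (0.0464) and in DESeq2 (0.0208). Cd79b passed in DESeq2 (0.0291).

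**Figure D3:**
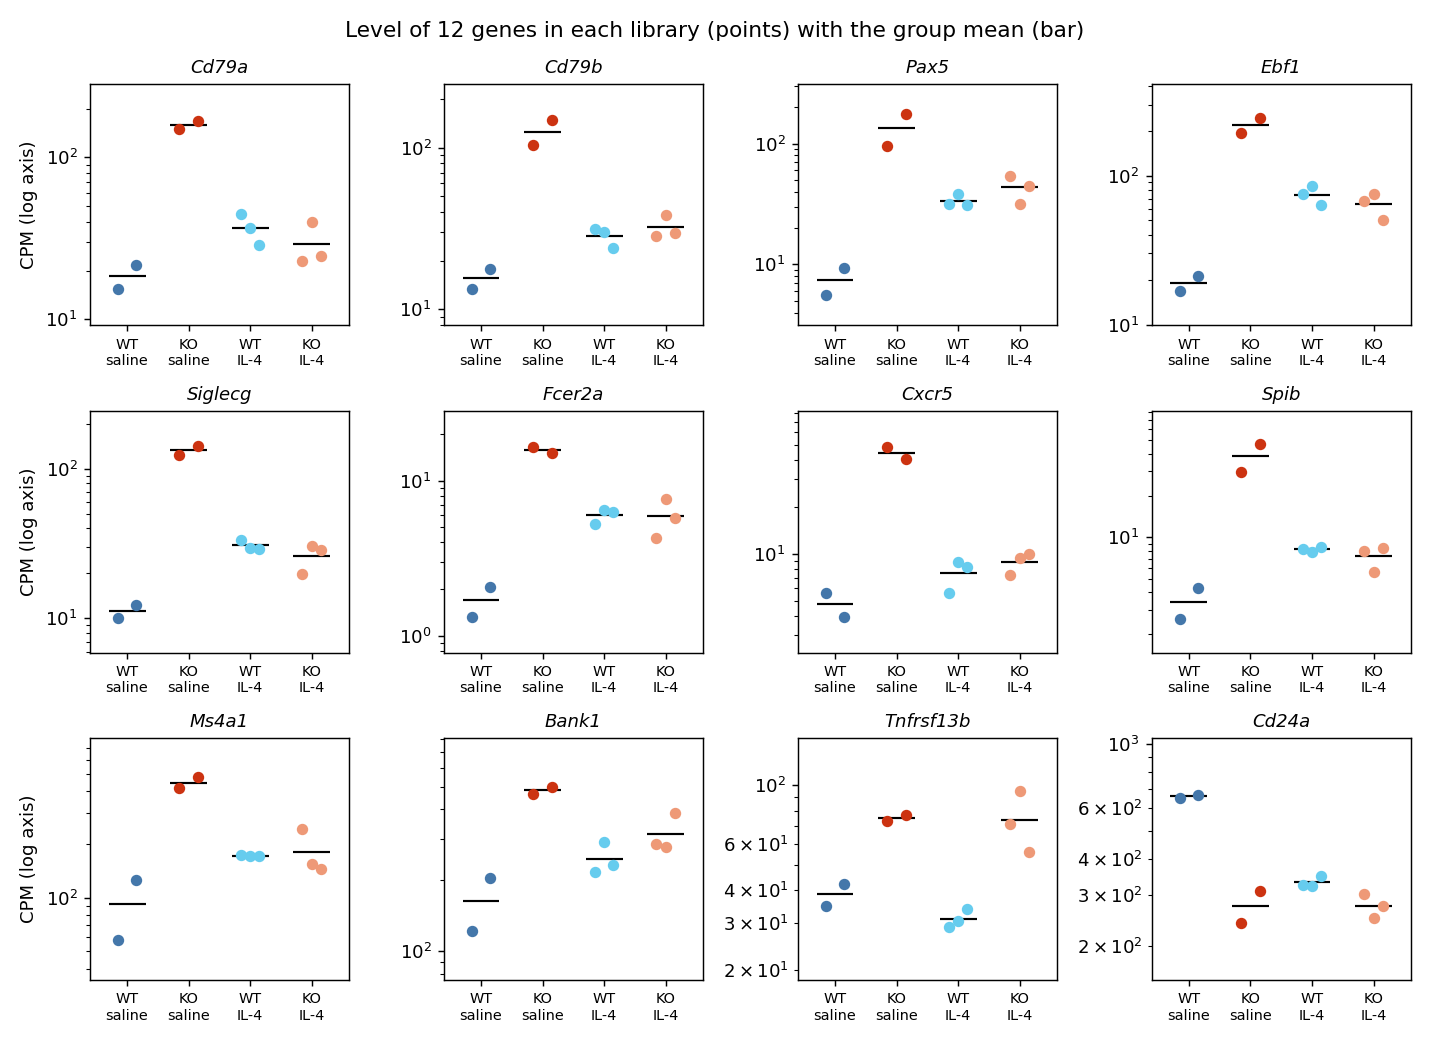
Level of 12 B lineage genes in each library (points, CPM on a log axis) with the group mean (bar), for wild-type (WT) and knockout (KO) mice given saline or IL-4. The knockout saline points lie above all others for the first 10 panels, Tnfrsf13b is high in both knockout groups, and Cd24a is highest in wild-type saline libraries.

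Of the 7 kinases, adaptors and channels below the receptor, 5 rose in knockout saline libraries (Blk, Blnk, Bank1, Lax1 and Ralgps2) and 4 of these, all but Bank1, fell with IL-4 in knockout. Blk, a Src-family kinase of B cells, was at 6.14 and 6.85 CPM in wild-type saline libraries and 34.3 and 38.1 CPM in knockout ones. After IL-4 it was at 10.997, 9.64 and 7.31 CPM in wild-type IL-4 and 5.99, 7.60 and 6.33 CPM in knockout IL-4 libraries. Bank1, a B cell scaffold protein, was at 121 and 204 CPM in wild-type saline, 463 and 499.6 CPM in knockout saline, 216, 291 and 231 CPM in wild-type IL-4 and 284, 275 and 386 CPM in knockout IL-4 libraries. For Blk the IL-4 libraries overlapped the wild-type saline ones, whereas for Bank1 all 6 lay above both. For Bank1, the change with IL-4 in knockout did not pass (log2 -0.61 ± 0.25, adjusted p = 0.147). In saline the Blk difference was log2 2.48 ± 0.33 (adjusted p = 0.00039) and that of Bank1 log2 1.56 ± 0.28 (adjusted p = 0.00394). Ralgps2, a guanine nucleotide exchange factor for Ral GTPases, was at 52.7 and 49.7 CPM in wild-type saline and 212 and 241 CPM in knockout saline libraries, 4.42-fold higher (log2 2.14 ± 0.25, adjusted p = 0.000161). It was at 74.3, 94.4 and 75.0 CPM in wild-type IL-4 and 117, 102 and 128 CPM in knockout IL-4 libraries, all above wild-type saline. The adaptor Blnk, which links the receptor to phospholipase C, was at 18.4 and 10.1 against 46.4 and 54.5 CPM in saline (log2 1.82 ± 0.32, adjusted p = 0.00357) and at 18.2, 21.3 and 21.8 CPM in wild-type IL-4 and 23.7, 27.7 and 19.7 CPM in knockout IL-4 libraries. Lax1, an inhibitory adaptor, was at 3.49 and 1.88 against 11.6 and 19.1 CPM in saline (log2 2.51 ± 0.52, adjusted p = 0.0118) and at 4.65, 4.52 and 8.03 CPM in wild-type IL-4 and 1.83, 2.15 and 3.85 CPM in knockout IL-4 libraries. After IL-4, all 3 knockout libraries lay below the 3 wild-type ones for Lax1, and the difference did not pass (log2 -1.12 ± 0.42, adjusted p = 0.236).

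Stap1 and Hvcn1 did not pass in any comparison. Stap1, an adaptor phosphorylated by Tec-family kinases, was at 15.01 and 24.3 CPM in wild-type saline, 55.0 and 39.9 CPM in knockout saline, 31.3, 45.5 and 27.1 CPM in wild-type IL-4 and 42.4, 82.6 and 59.8 CPM in knockout IL-4 libraries. Its highest library was thus a knockout IL-4 one, and the saline difference was log2 1.27 ± 0.36 (adjusted p = 0.0646). That value passed without knockout IL-4 replicate 1 (adjusted p = 0.0367) or replicate 2 (adjusted p = 0.0447), on scaling to library totals (0.0295) or upper quartiles (0.0359), without a filter (0.00558) and in DESeq2 (0.018). Hvcn1, a voltage-gated proton channel of B and myeloid cells, lay between 12.6 and 23.0 CPM in all 10 libraries. It shares 44.2% of its exon bases with Tctn1 on the opposite strand, and the strand setting of the counting is not given in the sources used here, so reads of the 2 genes may be mixed.

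Among the 12 surface receptors and co-receptors, 9 rose in knockout saline libraries and the same 9 fell with IL-4 in knockout: Ms4a1, Cd22, Siglecg, Fcrl1, Fcrl5, Fcrla, Fcmr, Cr2 and Fcer2a. Ms4a1, which encodes CD20, was at 57.7 and 126 CPM in wild-type saline, 414 and 477 CPM in knockout saline, 175, 171 and 172 CPM in wild-type IL-4 and 243, 155 and 145 CPM in knockout IL-4 libraries. The saline groups did not overlap (log2 2.28 ± 0.34, adjusted p = 0.00113), and each IL-4 library lay between them. Cd22, an inhibitory lectin of the B cell receptor, was at 4.25 and 2.23, 28.1 and 41.0, 11.3, 9.97 and 16.1, and 9.75, 8.37 and 7.77 CPM in the same groups. It was 10.7-fold higher in knockout than wild-type saline libraries (log2 3.42 ± 0.40, adjusted p = 0.000161) and rose with IL-4 in wild type (log2 1.94 ± 0.37, adjusted p = 0.00636). Siglecg, a related inhibitory lectin of B-1 cells, fell with IL-4 in knockout by 2.34 ± 0.25 on the log2 scale (adjusted p = 5.11e-05), from 123 and 143 CPM to 19.8, 30.4 and 28.8 CPM. It was at 10.1 and 12.2 CPM in wild-type saline and 33.4, 29.7 and 29.2 CPM in wild-type IL-4 libraries, where it rose (log2 1.46 ± 0.27, adjusted p = 0.00464).

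The Fc receptor-like and complement receptor genes were low in wild-type saline libraries. Fcmr, the receptor for IgM, was at 2.17 and 4.03 CPM there and at 31.9 and 28.4 CPM in knockout saline libraries (log2 3.27 ± 0.44, adjusted p = 0.000455), and at 6.01, 4.59 and 2.57 CPM in wild-type IL-4 and 3.35, 4.22 and 3.61 CPM in knockout IL-4 libraries. Its mean after IL-4 in knockout was 3.73 ± 0.449 CPM (SD, n = 3), within the range of the wild-type saline libraries, whose mean was 3.10 ± 1.31 CPM (SD, n = 2). Fcrla, an intracellular Fc receptor-like protein, differed between the knockout saline libraries, which held 134 and 46.2 CPM, against 8.40 and 10.2 CPM in wild-type saline (log2 3.27 ± 0.57, adjusted p = 0.0056) and 23.5, 9.17 and 16.9 CPM in wild-type IL-4 and 17.1, 13.2 and 6.65 CPM in knockout IL-4 libraries. Fcrl1 rose from 1.51 and 2.06 CPM to 15.1 and 8.59 CPM (log2 2.72 ± 0.58, adjusted p = 0.0148), and was at 2.20, 1.73 and 3.40 CPM in wild-type IL-4 and 1.93, 0.921 and 2.003 CPM in knockout IL-4 libraries. For both genes the IL-4 libraries overlapped the wild-type saline ones.

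**Figure D4:**
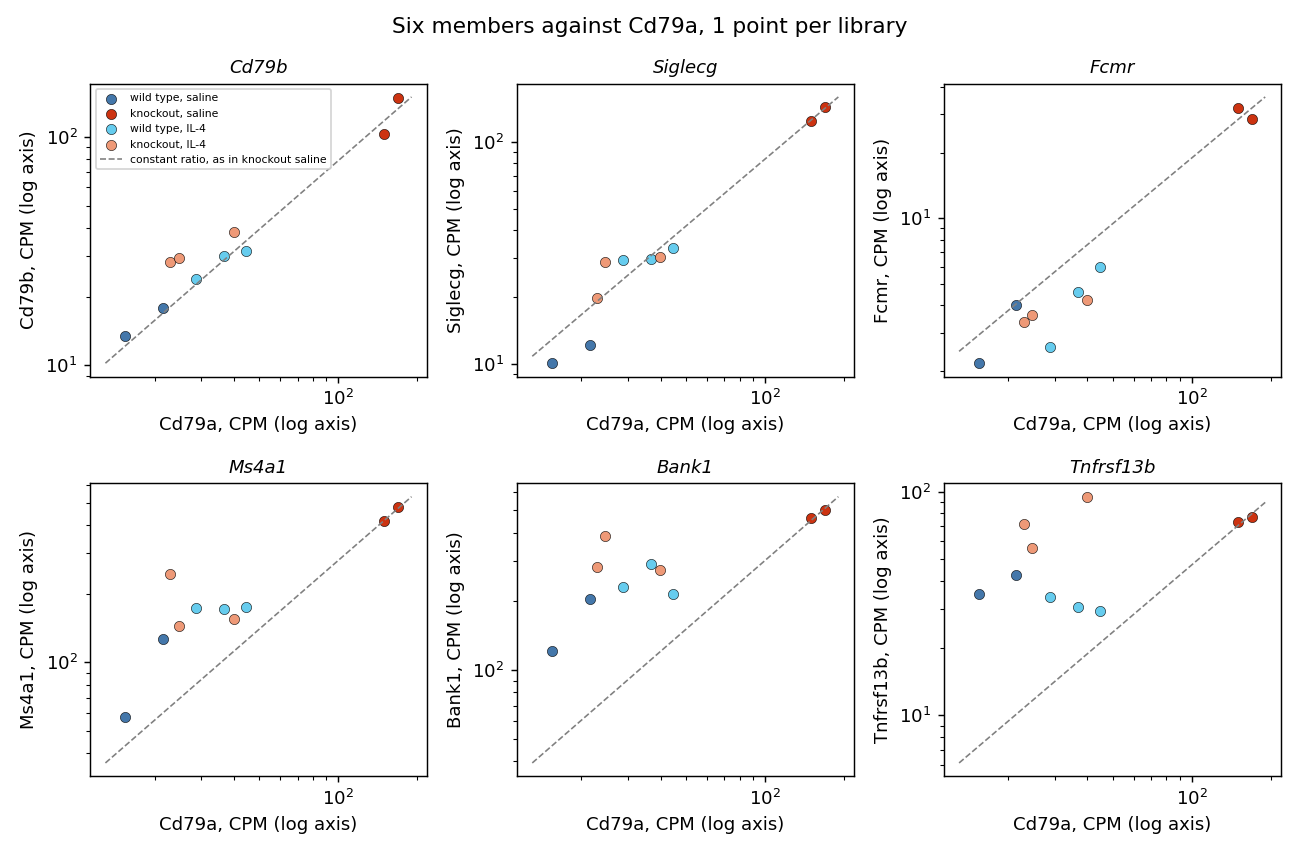
Level of 6 B lineage genes against Cd79a, 1 point per library, in CPM on log axes. The dashed line is the ratio of the knockout saline libraries. The pooled ratios of Cd79b range from 0.779 to 1.09 over the groups. By contrast, Ms4a1, Bank1 and Tnfrsf13b lie above the line outside the knockout saline group.

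Cd24a, Cd72 and Cd5 are the remaining surface genes. Cd24a, a small glycosylated surface protein that many cell types share, was at 652 and 665 CPM in wild-type saline, 241 and 309.7 CPM in knockout saline, 326, 324 and 350.4 CPM in wild-type IL-4 and 302, 249 and 274 CPM in knockout IL-4 libraries. It was the one member that fell in knockout saline libraries (log2 -1.26 ± 0.22, adjusted p = 0.00317), and it also fell with IL-4 in wild type (log2 -0.98 ± 0.19, adjusted p = 0.00729). The wild-type saline libraries thus lay above all others. Cd72, a co-receptor, lay between 0.206 and 3.57 CPM and shares 41.6% of its exon bases with Tesk1 on the opposite strand. Cd5 held 0 and 9 counts in wild-type saline, 13 and 22 in knockout saline and 8 to 21 in IL-4 libraries, and the saline difference did not pass (log2 2.08 ± 1.23, adjusted p = 0.415).

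Of the 10 transcription factors and nuclear regulators, 8 rose in knockout saline libraries, 7 fell with IL-4 in knockout and 4 (Pax5, Ebf1, Spib and Aff3) rose with IL-4 in wild type. Pax5, which keeps B cells committed, was at 5.57 and 9.34 CPM in wild-type saline, 94.5 and 175 CPM in knockout saline, 31.8, 38.3 and 30.9 CPM in wild-type IL-4 and 54.3, 31.5 and 44.3 CPM in knockout IL-4 libraries. Its groups in saline did not overlap, and the IL-4 libraries lay between them. With IL-4, Pax5 rose in wild type (log2 2.17 ± 0.35, adjusted p = 0.00221) and fell by 1.64 ± 0.31 on the log2 scale in knockout (adjusted p = 0.00405). Ebf1 behaved alike, with 16.9 and 21.1 CPM in wild-type saline, 192 and 242 CPM in knockout saline, 74.9, 85.3 and 63.7 CPM in wild-type IL-4 and 67.4, 75.4 and 50.6 CPM in knockout IL-4 libraries.

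Spib and Pou2af1 act later, in mature B cells, as an ETS factor and an octamer co-activator. Both rose in knockout saline libraries. Spib was at 2.55 and 4.28 CPM in wild-type saline and 29.7 and 47.1 CPM in knockout saline libraries, 11.2-fold higher (log2 3.48 ± 0.39, adjusted p = 0.000103), and at 8.29, 7.78 and 8.54 CPM in wild-type IL-4 and 7.92, 5.61 and 8.33 CPM in knockout IL-4 libraries. Pou2af1 was at 5.29 and 9.85 CPM in wild-type saline and 39.3 and 68.0 CPM in knockout saline libraries, 7.06-fold higher (log2 2.82 ± 0.37, adjusted p = 0.00039), and at 15.6, 12.4 and 11.6 CPM in wild-type IL-4 and 14.2, 13.9 and 11.8 CPM in knockout IL-4 libraries. For both, every IL-4 library lay between the saline groups. Its partner Pou2f2 started from a higher level, 279.5 and 252 CPM in wild-type saline, and reached 476 and 614 CPM in knockout saline libraries, 2.05-fold higher (log2 1.04 ± 0.22, adjusted p = 0.0145), with 304, 283 and 321 CPM in wild-type IL-4 and 350.5, 287 and 310.1 CPM in knockout IL-4 libraries. Aff3, a nuclear factor of lymphoid cells, rose from 1.13 and 1.46 to 22.1 and 14.8 CPM, 14.1-fold (log2 3.82 ± 0.45, adjusted p = 0.000165), and was at 7.27, 4.99 and 3.91 CPM in wild-type IL-4 and 7.82, 6.604 and 7.21 CPM in knockout IL-4 libraries. It too lay between the saline groups after IL-4.

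Bach2, Zbtb32, Zfp318 and Bhlhe41 are the remaining regulators, and the first pair rose. Bach2, a repressor that delays plasma cell differentiation, was at 34.9 and 28.01 CPM in wild-type saline, 69.5 and 71.3 CPM in knockout saline, 51.5, 65.4 and 53.9 CPM in wild-type IL-4 and 62.2, 62.0 and 45.2 CPM in knockout IL-4 libraries. It passed only in saline (log2 1.16 ± 0.27, adjusted p = 0.0228), and its change with IL-4 in knockout was log2 -0.32 ± 0.24 (adjusted p = 0.46). In wild type the IL-4 value was log2 0.86 ± 0.25 (adjusted p = 0.0535, and 0.039 without knockout IL-4 replicate 3, 0.0443 on library totals, 0.0492 in a fit of the 2 groups alone and 0.0119 in DESeq2). Zbtb32, a repressor found in B-1 and memory B cells, rose from 4.91 and 9.59 CPM in wild-type saline to 34.3 and 35.6 CPM in knockout saline libraries (log2 2.26 ± 0.45, adjusted p = 0.00884), and was at 3.72, 6.25 and 6.79 CPM in wild-type IL-4 and 6.09, 14.97 and 8.33 CPM in knockout IL-4 libraries. Zfp318, which controls the splicing that gives IgD, lay between 126 and 205 CPM in all libraries and its saline difference was log2 0.39 ± 0.25 (adjusted p = 0.463).

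Genes of both B cell subsets rose in knockout saline libraries. Of the 4 B-1 genes, Fcrl5 and Zbtb32 rose in knockout saline libraries, whereas Cd5 and Bhlhe41 did not pass. Fcrl5 went from 1.23 and 0.600 CPM in wild-type saline to 11.4 and 16.6 CPM in knockout saline libraries (log2 3.93 ± 0.63, adjusted p = 0.00178), and was at 3.55, 5.25 and 3.5 CPM in wild-type IL-4 and 1.42, 2.99 and 5.13 CPM in knockout IL-4 libraries. Bhlhe41 was uneven within groups: it held 20.4 and 3.34 CPM in wild-type saline, 19.9 and 29.5 CPM in knockout saline, 4.31, 5.58 and 6.90 CPM in wild-type IL-4 and 5.18, 4.68 and 21.6 CPM in knockout IL-4 libraries, with a saline difference of log2 1.06 ± 0.78 (adjusted p = 0.543). Wild-type saline replicate 1 and knockout IL-4 replicate 3 were high for this gene beside the knockout saline libraries. Both B-2 genes rose. Fcer2a, the low-affinity IgE receptor CD23, went from 1.32 and 2.06 to 16.7 and 15.1 CPM (log2 3.22 ± 0.44, adjusted p = 0.000469), and Cr2, the complement receptor CD21, from 4.72 and 2.91 to 19.7 and 19.9 CPM (log2 2.38 ± 0.48, adjusted p = 0.0104). With IL-4 in knockout, Fcer2a lay at 4.27, 7.68 and 5.77 CPM and Cr2 at 2.74, 3.69 and 1.84 CPM. Fcer2a also rose with IL-4 in wild type (5.24, 6.52 and 6.28 CPM, log2 1.82 ± 0.41, adjusted p = 0.0159), whereas Cr2 there lay at 5.50, 4.39 and 2.26 CPM.

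The TNF-family receptors and ligand did not move as 1 group. Tnfrsf13b, which encodes TACI, a receptor for BAFF and APRIL, was at 34.9 and 42.4 CPM in wild-type saline, 73.3 and 76.8 CPM in knockout saline, 29.2, 30.6 and 33.9 CPM in wild-type IL-4 and 71.3, 94.9 and 55.8 CPM in knockout IL-4 libraries. All 5 knockout libraries thus lay above all 5 wild-type libraries. It was 2.37-fold higher in knockout than wild type after IL-4 (log2 1.25 ± 0.23, adjusted p = 0.0173), and this call ended when any of the 3 wild-type IL-4 libraries was left out (adjusted p = 0.115, 0.0692 and 0.0721 without replicates 1, 2 and 3). In saline the difference was log2 0.96 ± 0.28 (adjusted p = 0.0687). That value passed without knockout IL-4 replicate 2 (0.0442) or replicate 3 (0.044), on scaling to library totals (0.0336) or upper quartiles (0.0464) and in DESeq2 (0.0204). The interaction for Tnfrsf13b was log2 0.29 ± 0.36 (adjusted p = 0.773).

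Tnfrsf13c, the BAFF receptor on which mature B-2 cells depend, was at 4.63 and 18.8 CPM in wild-type saline, 36.3 and 71.4 CPM in knockout saline, 8.21, 11.1 and 11.1 CPM in wild-type IL-4 and 11.1, 9.75 and 10.3 CPM in knockout IL-4 libraries. It rose in knockout saline libraries (log2 2.19 ± 0.50, adjusted p = 0.0247, and 0.102 in a fit of the 2 groups alone) and fell with IL-4 in knockout (log2 -2.38 ± 0.44, adjusted p = 0.00455). Ltb, a membrane ligand of the lymphotoxin beta receptor, was at 2.36 and 4.97, 16.8 and 9.84, 1.95, 1.46 and 2.68, and 0.914, 3.46 and 1.36 CPM in the same groups. It fell with IL-4 in knockout (log2 -2.77 ± 0.55, adjusted p = 0.00576), and its saline difference did not pass (log2 1.85 ± 0.61, adjusted p = 0.105, and 0.0247 without a filter on low counts).

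All 3 chemokine receptors rose in knockout saline libraries and fell with IL-4 in knockout. Cxcr5, the receptor for CXCL13 that brings B cells to follicles and body cavities, was at 5.57 and 3.94 CPM in wild-type saline, 48.6 and 40.6 CPM in knockout saline, 5.58, 8.78 and 8.24 CPM in wild-type IL-4 and 7.31, 9.45 and 9.93 CPM in knockout IL-4 libraries. It was 9.37-fold higher in knockout than wild-type saline libraries (log2 3.23 ± 0.35, adjusted p = 9.4e-05), with no overlap. It shares 3.3% of its exon bases with Bcl9l on the opposite strand. Ccr6, the receptor for CCL20, was at 2.17 and 4.97 CPM against 26.1 and 38.9 CPM (log2 3.18 ± 0.51, adjusted p = 0.00185), and at 5.67, 5.98 and 13.9 CPM in wild-type IL-4 and 8.43, 6.37 and 9.61 CPM in knockout IL-4 libraries. Ccr7, the receptor for CCL19 and CCL21, was at 4.53 and 5.91 CPM against 26.4 and 28.8 CPM (log2 2.40 ± 0.44, adjusted p = 0.0056), and with IL-4 in knockout it fell to 4.37, 2.76 and 3.61 CPM (log2 -2.95 ± 0.39, adjusted p = 0.000292), against 3.55, 5.32 and 9.88 CPM in wild-type IL-4 libraries. Vpreb3, which binds newly made receptor chains inside B cells, held 0 and 5 counts in wild-type saline, 18 and 11 in knockout saline and 1 to 11 in IL-4 libraries, and passed in no comparison.

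A list of 9 genes held ligands of these receptors together with the receptor genes Ltbr and Il4ra. Of the 9, 6 were tested, Ltbr and Il4ra among them, and 1 (Sema4d, the CD72 ligand) was higher in knockout than wild-type saline libraries. Sema4d was at 1.13 and 1.63 CPM in wild-type saline and 8.76 and 8.59 CPM in knockout saline libraries. It was at 8.88, 8.04 and 10.9 CPM in wild-type IL-4 and 4.47, 6.30 and 6.01 CPM in knockout IL-4 libraries. Sema4d thus also rose with IL-4 in wild type (log2 2.73 ± 0.41, adjusted p = 0.00131). Cxcl13, the ligand of CXCR5, was at 729 and 948 CPM in wild-type saline and 1348 and 889 CPM in knockout saline libraries, and at 352, 493 and 408 CPM in wild-type IL-4 against 86.8, 37.2 and 25.0 CPM in knockout IL-4 libraries (log2 -3.08 ± 0.39, adjusted p = 0.00265). Cxcr5 thus passed between genotypes in saline and Cxcl13 after IL-4. Ccl19, Ccl21a and Ccl20 held 0 counts in all 10 libraries. The BAFF gene Tnfsf13b lay between 7.65 and 21.9 CPM in all libraries.

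Relative to Cd79a, some genes moved less than others. The counts of Cd79b per count of Cd79a, pooled within groups, were 0.843 in wild-type saline, 0.794 in knockout saline, 0.779 in wild-type IL-4 and 1.09 in knockout IL-4 libraries. Those of Siglecg were 0.602, 0.836, 0.829 and 0.901. By contrast, Bank1 gave 8.84, 3.01, 6.75 and 10.6 counts per count of Cd79a in the same groups, Pou2f2 14.2, 3.44, 8.08 and 10.5, and Tnfrsf13b 2.08, 0.469, 0.835 and 2.50. For these 3 genes the ratio was lowest in the knockout saline libraries. The same held for other members, among them Ms4a1 (5.02, 2.80, 4.65 and 5.90) and Blnk (0.754, 0.317, 0.551 and 0.797). Cd79a itself was 8.61-fold higher in knockout than wild-type saline libraries, so a gene that rose less had a lower ratio in the former. Cd24a went from 35.3 in wild-type saline to 1.74 in knockout saline. Per kilobase of exon, Cd24a was the highest of the 38 genes in wild-type saline libraries at 255 CPM per kb, followed by Pou2f2 at 32.2, while Cd79a stood at 12.7. In knockout saline libraries Cd79a was highest at 109 CPM per kb, with Cd24a at 107 and Cd79b at 87.5.

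Other genes of the receptor pathway include several that myeloid cells express. Of 23 such genes listed, 17 were analysed here, and the immunoglobulin constant genes Ighm, Ighd, Igkc and Iglc1 to Iglc3 were not. In saline, 3 of the 17 were higher in knockout, among them the complement regulator Cd55 (log2 1.66, adjusted p = 0.00884). The median log2 of the 17 was 0.38, and Btk, Lyn, Syk and Plcg2, which myeloid cells also express, did not pass. The Cd55 call was lost without wild-type saline replicate 1 (adjusted p = 0.0635) or knockout saline replicate 1 (0.0508). With IL-4 in knockout, 5 of the 17 fell, among them Vav1, Cd55 and Cd37, and 1 (Lyn) rose. Without knockout saline replicate 1 or 2, or knockout IL-4 replicate 3, Cd55 no longer passed (adjusted p = 0.107, 0.0854 and 0.0542). Of 8 B cell precursor genes, Rag1, Rag2, Igll1 and Vpreb2 held 0 counts in all libraries and 2, Cd93 and Il7r, were tested. Cd93, which endothelial and myeloid cells also express, was higher in knockout saline libraries (log2 1.08, adjusted p = 0.00714, lost without knockout saline replicate 1, 0.0687, or wild-type saline replicate 2, 0.08), and both rose with IL-4 in wild type. The Il7r call was lost without wild-type saline replicate 1 (0.127) or wild-type IL-4 replicate 2 (0.0511). The list summed to 775 and 861 CPM in knockout saline, 345 and 427 CPM in wild-type saline and 873 to 1029 CPM in IL-4 libraries. Il7r made up between 2.36 and 11.6 CPM of each sum. The genes other than Cd93 and Il7r held 0 counts or did not pass the filter, so most of each sum was Cd93. Of the 7 plasma cell genes tested, 2 were higher in knockout saline libraries. Mzb1, an endoplasmic reticulum chaperone of marginal zone, B-1 and plasma cells, was at 4.63 and 13.4 CPM in wild-type saline and 50.7 and 49.2 CPM in knockout saline libraries (log2 2.47 ± 0.41, adjusted p = 0.00259). Prdm1, the regulator of plasma cells that macrophages also express, held 0 counts in both wild-type saline libraries and 5.30 and 2.42 CPM in knockout saline ones (adjusted p = 0.00225), and between 1.52 and 4.22 CPM in all 6 IL-4 libraries. Jchain stayed under 3 CPM in all libraries.

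Some markers of other cells were also high in the knockout saline libraries. The summed level of 10 mast cell genes was 188 and 317 CPM in knockout saline, 84 and 132 CPM in wild-type saline and 36 to 51 CPM in IL-4 libraries, and 4 of the 9 tested were higher in knockout saline libraries, namely the proteases Tpsb2 (log2 2.36, adjusted p = 0.00181), Cma1 (log2 2.83, adjusted p = 0.0026) and Cpa3 (log2 3.22, adjusted p = 0.0111) and the receptor Kit (log2 3.82, adjusted p = 0.0131). Cpa3 and Kit no longer passed without knockout saline replicate 2 (0.0899 and 0.366), wild-type saline replicate 1 (0.0711 and 0.0605) or replicate 2 (0.101 and 0.142). The 12 T cell genes analysed here summed to 101 and 104 CPM in knockout saline and 27 to 43 CPM in all other libraries. Cd2, which B cells share, made up 82.4 and 84.5 CPM of those, and Cd3e lay at 0 to 15 counts in each library. Of 10 MHC class II genes, 7 were higher in knockout saline libraries, and their sum was 1536 and 1941 CPM there, 421 and 742 CPM in wild-type saline, 1687 to 2224 CPM in wild-type IL-4 and 1411 to 1539 CPM in knockout IL-4 libraries. The 6 genes of plasmacytoid dendritic cells summed to 1054 and 1179 CPM in knockout saline and 576 to 715 CPM in the 8 other libraries. Of these, Ly6d, which B cells and their precursors share, and Tcf4 were higher in knockout saline libraries (log2 2.71, adjusted p = 0.000425, and log2 0.94, adjusted p = 0.019), and 3 fell with IL-4 in knockout (Ly6d, Irf8 and Bst2). The Tcf4 call was lost without any 1 of the 4 saline libraries (0.0583 to 0.16). Siglech, a defining gene of that type, stayed at or under 1.65 CPM. Genes of conventional dendritic cells summed to 30.1 and 38.5 CPM in knockout saline, 11.5 and 12.6 CPM in wild-type saline, 14.4 to 22.6 CPM in wild-type IL-4 and 28.4 to 30.6 CPM in knockout IL-4 libraries, with 1 of 6 (Cd209a) higher in knockout saline libraries. Natural killer cell genes summed to 4.38 and 9.08 CPM in knockout saline and at most 2.78 CPM in other libraries, and the 3 tested did not pass in any comparison. Of 10 macrophage genes, 1 (Lyz2) fell and the other 9 did not pass. Their sum was 7894 and 15045 CPM in knockout saline against 28262 and 31211 CPM in wild-type saline libraries, where Lyz2 made up most of it. Without Lyz2 it was 5230 and 5370 CPM against 6359 and 7611 CPM, and 4938 to 5325 CPM in IL-4 libraries. The part of these other cells in the B lineage result was not tested.

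**Figure D5:**
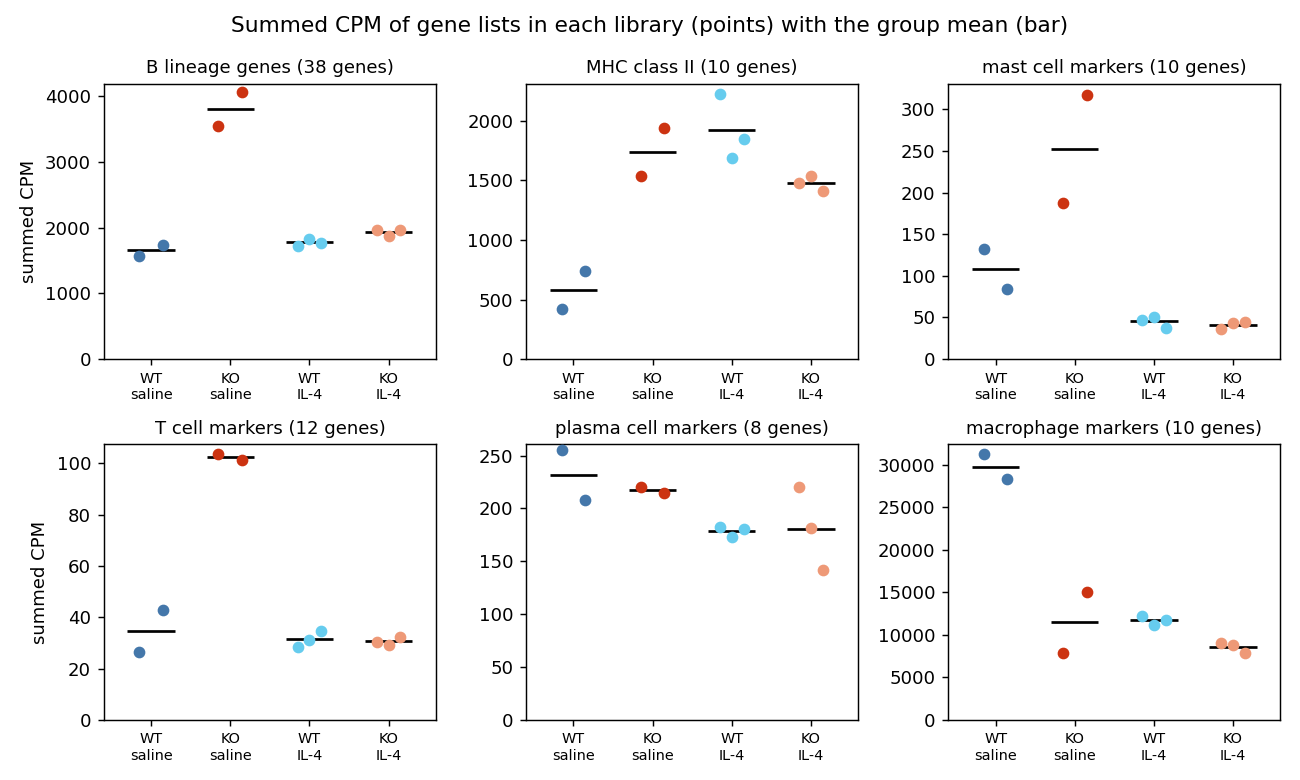
Summed level (CPM) of 6 gene lists in each library (points) with the group mean (bar), for wild-type (WT) and knockout (KO) mice given saline or IL-4. The B lineage, mast cell and T cell sums are highest in the 2 knockout saline libraries, and the macrophage sum, most of which is Lyz2 there, in the 2 wild-type saline libraries.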

How the data were processed

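Gene-level read counts, as deposited, were used without change: 10 libraries of polyadenylated RNA, 22165 Ensembl identifiers. Per the submitters' processing notes, the authors used STAR and HTSeq with mm10, but versions, annotation and strand setting are not given in the sources used here. Identifiers were matched by symbol to GENCODE M21 (GRCm38), and 420 had no symbol. The member genes and gene lists were chosen with earlier results of these data known. In R 4.3.3, edgeR 4.0.16 gave TMM factors and a robust quasi-likelihood model of the 4 groups (6 residual degrees of freedom), after filterByExpr had removed low genes at a minimum count of 10 and a total of 15. The common coefficient of variation was 28.4%. Tests were two-sided. The fit was tested on simulated data. DESeq2 1.42.0 and other scalings, filters and sample sets served as alternatives. Replicate numbers did not pair libraries. The rule for named genes was every member, and from each other list at most 4 passing genes by p. Vav1, Cd37, Lyn, the sorting markers and the genes at 0 were named, and the sums without Cd24a or Lyz2 added, after values were seen. Replicate libraries differed beyond sampling noise. Per-kilobase levels divide CPM by the union of exons. Sequences are from RefSeq. Some genes, including the targeted one, are not reported here.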

Additional observations from a re-analysis of the deposited data

Results flagged for a closer look

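The effect of IL-4 differed between knockout and wild type for 23 B lineage genes, by the interaction term of edgeR's quasi-likelihood test with Benjamini-Hochberg adjustment. Each value below is the log2 change with IL-4 in knockout minus that in wild type. For the receptor chains and the genes just below them, the values were Cd79a -3.43, Cd79b -2.83, Blk -2.96, Blnk -1.61, Lax1 -3.63 and Ralgps2 -1.63. For the surface receptors they were Ms4a1 -2.21, Cd22 -3.94, Siglecg -3.80, Fcrl1 -3.31, Fcrl5 -4.29, Fcrla -3.70, Fcmr -3.51, Cr2 -2.94 and Fcer2a -3.24. For the nuclear regulators they were Pax5 -3.81, Ebf1 -3.73, Spib -3.66, Pou2af1 -2.81 and Aff3 -3.40, and for the chemokine receptors Ccr6 -3.23, Cxcr5 -2.99 and Ccr7 -3.20. All 23 genes were higher in knockout than wild-type saline libraries, and Tnfrsf13b, the gene that passed between genotypes after IL-4, was not among them. The interaction is also the genotype difference after IL-4 minus that in saline. The former had a median log2 of -0.02 over the 38 genes. The interaction thus largely restates the saline difference with its sign turned, and the overlap is not a separate result. Of the 23 calls, 19 were kept in every fit without 1 library. Blnk lost its call without any 1 of 8 libraries (adjusted p from 0.054 to 0.186). Fcrl1 lost it without knockout saline replicate 1 (0.174), wild-type saline replicate 1 (0.0733) or 2 (0.0557), or wild-type IL-4 replicate 3 (0.0602). Fcrla lost it without knockout saline replicate 1 (0.0543) or wild-type saline replicate 1 (0.08) or 2 (0.074). Cr2 lost it without knockout saline replicate 1 (0.057) or 2 (0.0556) or wild-type saline replicate 2 (0.0715). Bank1 and Tnfrsf13c, which were not among the 23, gave log2 -1.64 and -3.52 without wild-type saline replicate 2. Both passed on library totals (adjusted p = 0.0266 and 0.0427), without a filter (0.0229 and 0.000253) and in DESeq2 (0.0398 and 0.0258). Bank1 also passed on scaling to upper quartiles (0.0384). Pou2f2 passed on library totals (0.0374) and in DESeq2 (0.0295), and Bach2 in DESeq2 (0.0268).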

How the results depend on the processing

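No member difference given in the text changed direction under any of the 20 alternatives (19 for the interaction, which has no fit of 2 groups alone). The count of genes called between genotypes in saline ran from 22 to 31 over fits without 1 library, and the median log2 from 2.35 to 2.95, the latter without wild-type saline replicate 2. The count after IL-4 ran from 0 to 1, with 0 without any 1 of the wild-type IL-4 libraries. For IL-4 in wild type it ran from 5 to 10 and was 14 with DESeq2 (13 higher and 1 lower). For IL-4 in knockout it ran from 15 to 27, and for the interaction from 19 to 23. DESeq2 called 28 genes for the interaction, 27 negative and 1 positive (Cd24a, log2 0.99, adjusted p = 0.0181). With the replicate number as a block, the counts were 29, 1, 8, 24 and 23. Under the block Fcrl5 (adjusted p = 0.0873) and Spib (0.0943) lost their calls for IL-4 in wild type and Cd79a gained one (0.0457), Blnk, Pou2f2 and Aff3 lost theirs in knockout (0.0627 to 0.0853), and for the interaction Blnk lost its call (0.0769) and Tnfrsf13c gained one (0.0488). Replicate numbers did not pair libraries (correlations of deviations from -0.11 to 0.062). Scaling to library totals moved the median of all genes by 0.15 in saline, -0.10 for IL-4 in knockout and -0.18 for the interaction, and gave 31, 1, 12, 27 and 26 calls. In fits that keep a single library of a group, its spread is taken from the other groups. Genes under a few CPM, such as Cd5, Cd72 and Vpreb3, had SEs of about 0.9 or more, which limits what 2 libraries a group can show.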
